A study of Mus musculus with 12 samples.

Results

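The astrocyte response to an arterial occlusion that 6 mice had in common was measured by setting the ipsilateral hemisphere, on the side of the occlusion, against the contralateral hemisphere of the same animal. All 12 of the 12 libraries of the series entered, 1 per hemisphere of each mouse, as 6 pairs averaged over both genotype labels. Of 14926 genes tested, 5138 (34.4%) passed the test and moved the same way in all 6 mice, 2790 (18.7%) upward and 2348 (15.7%) downward. All libraries of the series entered, so no measured value selected them. The comparison was set with earlier results of these data known.

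Astrocytes are the glial cells that clear glutamate and potassium from the space around neurons, couple to each other through gap junctions and supply lactate. After ischaemia they become reactive: filament genes and inflammatory genes are induced and functions of the resting cell decline. Brain tissue around an infarct is also reached by signals of stress, such as oxidants, unfolded proteins, cytokines of the interleukin 6 family and interferons, each of which is read by its own transcription factors. Which of these programmes move in every animal is the question the averaged comparison addresses.

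All mice were C57BL/6, between postnatal day 90 and 120, and carried Gfap-CreERT2+/-, which places a tamoxifen-activated Cre under the Gfap promoter, together with floxed alleles that Cre removes. Mice 296, 297 and 474 carry the wild-type label (WT) and had received corn oil, while mice 295, 298 and 300 carry the Astro-KO label (KO) and had received tamoxifen. Drug and deletion therefore cannot be told apart. All underwent transient middle cerebral artery occlusion (tMCAO), in which an artery is blocked and reopened, and cells positive for ACSA-2, an astrocyte surface antigen, were taken from both hemispheres at 24 h. There was no sham operation and no other time, so the difference between sides is the only measure of the response here.

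The libraries held 11187723 to 15780600 counts in 18292 to 19024 detected genes. Xist counts were 8 and 4 in mouse 296, whose Y-linked counts were 2733 and 2917, against 9140 to 29592 Xist counts and at most 8 Y-linked counts in the remaining animals. The mitochondrial share of counts was 0.923 to 1.21% but for 1.68% (mouse 298) and 1.83% (mouse 300), both ipsilateral. The summed level of 10 defining astrocyte markers was 15800 to 26400 CPM (counts scaled to library size) contralaterally and 10100 to 26700 CPM ipsilaterally, higher on the ipsilateral side in 1 of 6 mice. The 10 oligodendrocyte markers summed to 5580 to 19600 and 10200 to 23400 CPM and were higher in 4 of 6 mice, with a log2 ratio of 2.07 in mouse 300. The 11 microglia markers summed to 514 to 1430 and 366 to 2720 CPM and were higher in 5 of 6 mice, but lower by 1.19 on the log2 scale in mouse 300. In the plot of marker sums the astrocyte-selected libraries thus hold RNA of other cells on both sides, in amounts that differ between mice, and no marker of any list was at 0 in all libraries.

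**Figure D1:**
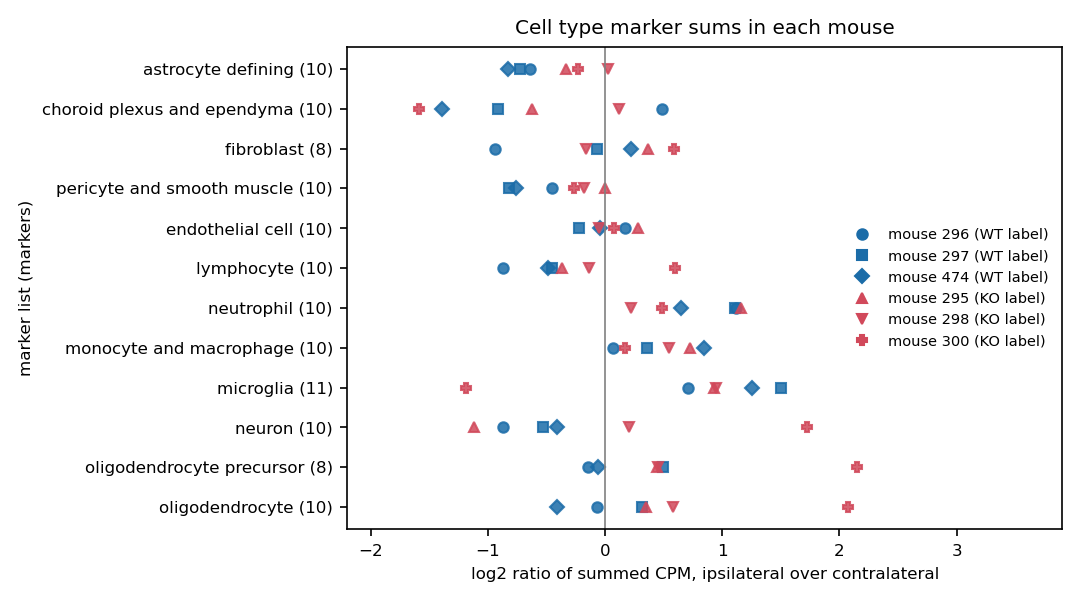
Log2 ratio of the summed CPM of each cell type's markers, ipsilateral over contralateral, with 1 point per mouse. Neutrophil and monocyte sums lie right of 0 in all 6 mice, whereas oligodendrocyte sums range from -0.41 to 2.07. Pericyte sums lie left of 0, though in mouse 295 only at -0.0014.

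Throughout, levels are the lowest, median and highest CPM of the 6 libraries of a side, and changes are log2 fold changes, ipsilateral minus contralateral, ± SE from edgeR's quasi-likelihood test with the mouse as a block. Adjusted p-values are from that test with Benjamini-Hochberg adjustment over the 14926 genes, called at 0.05. A gene is said to have risen or fallen only where it was called and its log2 CPM moved that way in each of the 6 mice. The 6 mice are the replicates. In such bulk samples, fewer cells of a type and less RNA per cell cannot be told apart.

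With the scaling used, the shared response had nearly as many falls as rises, of like typical size. The directions differed in their largest changes. In all, 6244 genes (41.8%) were called, 3253 higher (21.8%) and 2991 lower (20.0%), and the median over all genes was -0.01. Of the genes called, 453 moved upward and 624 downward in only 5 mice, and 10 and 19 in only 4. The median change was 0.62 among rises in all 6 mice and -0.61 among falls. Rises of at least 2-fold in all 6 mice numbered 661 (4.43%) against 323 falls (2.16%). At 4-fold the numbers were 197 (1.32%) and 2 (0.0134%). For 939 genes (6.29%) every ipsilateral library lay above every contralateral one, and for 377 (2.53%) every ipsilateral library lay below. From the deposited TPM, a unit scaled to a fixed sum per library, 2384 genes were higher and 3574 lower, so that 40% of calls were higher against 52.1% from counts. With upper-quartile scaling of the counts the share was 45.5%. Scaling itself sets the bulk of genes near 0, so the median near 0 and the balance of directions depend on it.

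The size of the response differed between animals. The SD of the per-mouse change over called genes was 1.21 in mouse 297, 1.14 in mouse 474, 1.08 in mouse 300, 0.899 in mouse 295, 0.834 in mouse 296 and 0.752 in mouse 298. Mouse 298 had the smallest change of the 6 in 927 of the 2790 rises and in 1029 of the 2348 falls. Mouse 300 had the largest change in 938 rises, and mouse 297 the largest in 929 falls. By this SD, the strong and weak responders were found under both labels: mice 297 and 474 are labelled WT and mouse 300 KO, and the weakest, 296 and 298, carry 1 label each. In mouse 300 the log2 ratios of the marker sums were 2.07 (oligodendrocyte), 2.15 (oligodendrocyte precursor), 1.72 (neuron) and -1.19 (microglia). In mouse 297 the microglia ratio was 1.50. The part of such shifts in cell content in the SD was not tested. Changes of different mice correlated across genes at r = 0.449 to 0.758, a description over 14926 genes that are not independent replicates.

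In 20 of the 33 process lists, shown in the plot of list medians, the median change was above 0 in each of the 6 mice, in 8 it was below 0 in each, and 5 had mice on both sides. Among the 20 lists that rose, the highest median was that of mouse 300 in 8, of mouse 297 in 7, of mouse 474 in 3, of mice 295 and 296 in 1 each and of mouse 298 in 0. The 774 distinct genes of these lists that were tested included 336 that rose (43.4%) and 152 that fell (19.6%), against 18.7% and 15.7% of all genes tested. The lists were chosen with earlier results of these data known, so their counts describe and do not test.

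**Figure D2:**
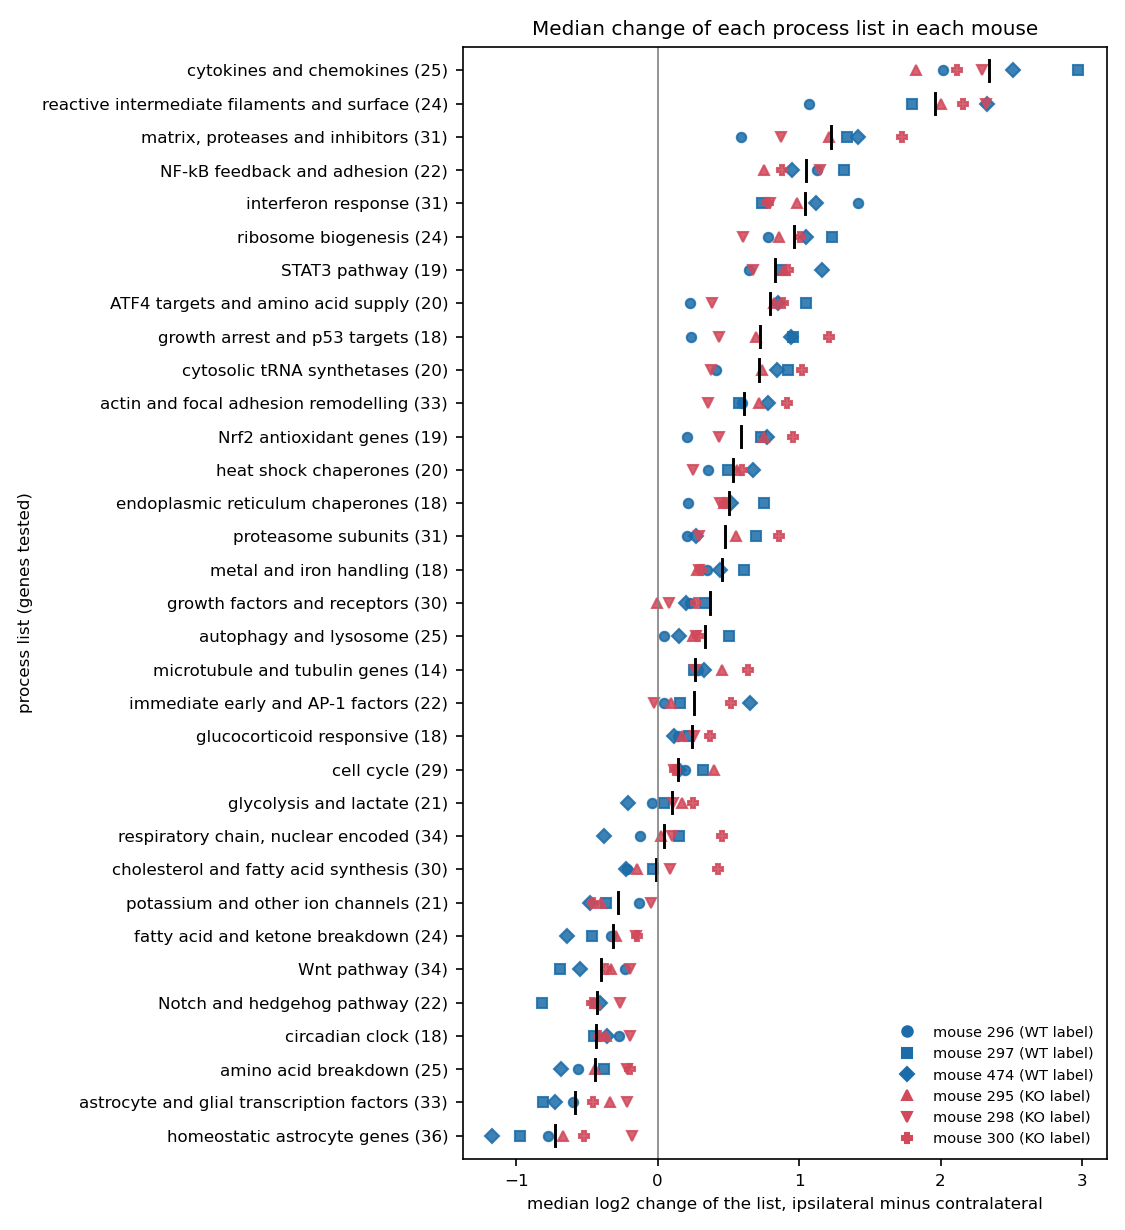
Median log2 change of each process list, with 1 point per mouse and a black bar at the median of the fitted log2 fold changes. Cytokines lie furthest right at 2.34 and homeostatic astrocyte genes furthest left at -0.73, and mouse 298 is the closest to 0 in 6 of the 8 falling lists.

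Separate fits of the 3 mice under each label, which share no library, showed the same direction for nearly all called genes. Of 2086 genes called higher in the WT mice, 96.9% were higher in the KO mice and 62.4% were called there, against 48.4% of all genes that were higher in the KO mice. Of 1826 called higher in the KO mice, 98.3% were higher in the WT mice and 71.2% were called. For the 1628 falls of the WT mice the shares were 95.5% and 43.8%, and for the 1530 falls of the KO mice 98.3% and 46.6%. At most 1 gene of a list was called in the opposite direction under the other label. The log2 fold changes of the separate fits correlated at r = 0.807 across genes.

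**Figure D3:**
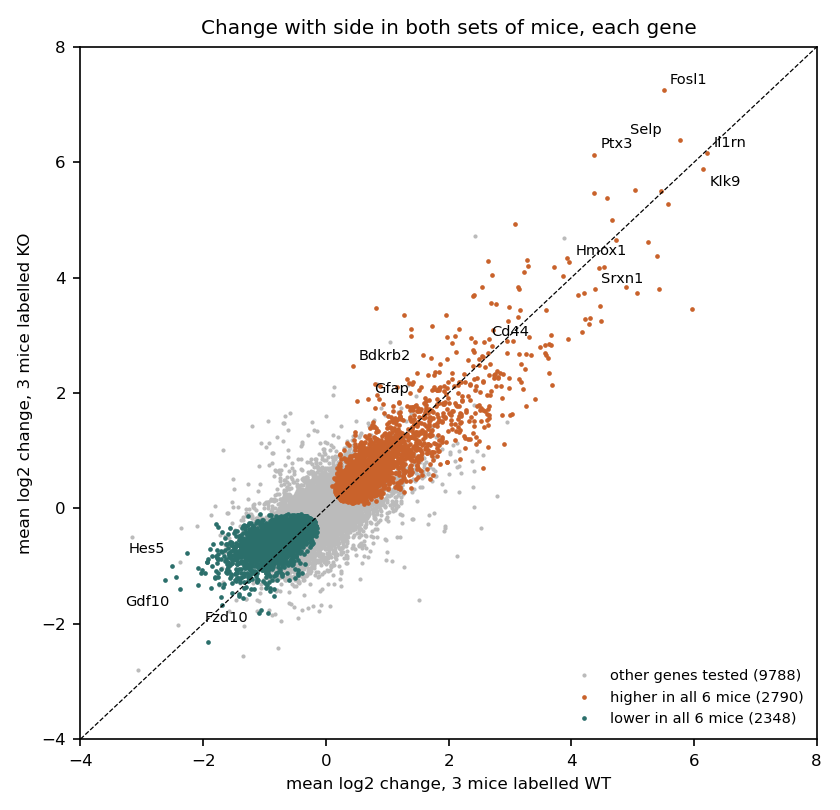
Mean log2 change of each gene tested in the 3 mice labelled WT (x axis) and in the 3 mice labelled KO (y axis), with genes that rose (2790) or fell (2348) in all 6 mice in colour and equality dashed. Genes such as Selp and Il1rn lie near the dashed line, while Hes5 and Bdkrb2 lie away from it.

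Among genes with a mean of at least 4 CPM that moved one way in all mice, the 12 largest rises were those of Selp, Il1rn, Sele, Fga, Ucn2, Klk9, Gldn, Il11, Il6, Mmp3, Fosl1 and Gdf15. Selp, which encodes P-selectin, an adhesion receptor for leukocytes (chromosome 1, 164115264 to 164150026, plus strand), had 0, 0.0846 and 0.396 CPM contralaterally and 12.3, 14.4 and 39.3 CPM ipsilaterally. It had 1405 counts ipsilaterally against 12 contralaterally over 6 libraries each, a ratio of 120.0 (95% counting interval 68.4 to 232). Sele, which encodes E-selectin (chromosome 1, 164048234 to 164057677, plus strand), went from 0.0729, 0.321 and 0.808 CPM to 11.1, 18.1 and 36.1 CPM, with 1484 counts ipsilaterally against 28 contralaterally over 6 libraries each, a ratio of 54.2 (95% counting interval 37.4 to 81.9). The sides did not overlap for either selectin, and the changes were 6.98 ± 0.37 for Selp (adjusted p 1.85e-05) and 5.89 ± 0.24 for Sele (adjusted p 5.65e-06). Both are made by activated endothelium. The 10 endothelial markers summed to 1330 to 2000 CPM contralaterally and 1340 to 2100 CPM ipsilaterally and were higher in 3 of 6 mice. Of these markers 3 rose (30%) and 1 fell (10%), against 18.7% and 15.7% of all genes tested. The part of endothelial cells in the rises of the selectins was not tested. Selp overlaps unnamed genes on the opposite strand, and the strand of counting is not known.

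Fga, the fibrinogen alpha chain of clots, had 0, 0.0707 and 0.169 CPM and 1.13, 4.53 and 35.8 CPM, with 856 counts ipsilaterally against 5 contralaterally over 6 libraries each, a ratio of 175 (95% counting interval 74.8 to 541). Ucn2, urocortin 2, a peptide of the corticotropin-releasing family, went from 0.146, 0.24 and 0.951 CPM to 3.78, 19.6 and 39.5 CPM at 5.71 ± 0.22 (adjusted p 5.65e-06). It had 1560 counts ipsilaterally against 30 contralaterally over 6 libraries each, a ratio of 53.2 (95% counting interval 37.1 to 79.1). Klk9, a kallikrein-related protease, went from 0, 0 and 1.03 CPM to 3.5, 17.8 and 41.1 CPM, and Gldn, gliomedin, from 0, 0.241 and 0.846 CPM to 5.32, 12.7 and 18.9 CPM. For these 4 genes every ipsilateral library lay above every contralateral one. Fitted fold changes of genes with so few contralateral counts depend on the small count added before taking logs. The count ratios pool the reads of 6 mice, and their intervals do not cover the spread between mice. For Fga the ipsilateral level was 35.8 and 20.7 CPM in mice 296 and 297 and 1.13 to 5.63 CPM in the others.

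Among 25 cytokines and chemokines tested, 19 rose and 2 fell, with a median of 2.34 and per-mouse medians of 1.83 to 2.97. Il1rn, the secreted antagonist of the interleukin 1 receptor (chromosome 2, 24336853 to 24351494, plus strand), went from 0, 0.209 and 0.74 CPM to 18.6, 27.2 and 46.1 CPM, with 2182 counts ipsilaterally against 20 contralaterally over 6 libraries each, a ratio of 112 (95% counting interval 72.1 to 183). Every ipsilateral library exceeded every contralateral one, at 6.72 ± 0.35 (adjusted p 1.85e-05). Il11, a cytokine of the interleukin 6 family, went from 0.247, 0.334 and 0.475 CPM to 4.83, 20.4 and 92.6 CPM, and Il6 itself from 0, 0.228 and 1.1 CPM to 3.01, 14.8 and 43.4 CPM. Both rose in each mouse, Il11 by 3.26 to 7.85 and Il6 by 2.73 to 7.29 on the log2 scale, so the size varied widely while the direction did not. Lif, a further member of the family, rose from 2.38, 4.72 and 6.21 CPM to 14.2, 21.6 and 56.9 CPM at 2.72 ± 0.18 (adjusted p 6.45e-05).

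Il33, an alarmin released by damaged cells and abundant in glia (chromosome 19, 29925114 to 29960718, plus strand), had 75.9, 117 and 235 CPM and 300.1, 531 and 1623 CPM. All ipsilateral libraries exceeded all contralateral ones, at 2.28 ± 0.17 (adjusted p 8.14e-05). The 2 members that fell, named after their values were seen, were the chemokine Cxcl14 (-0.80 ± 0.20, adjusted p 0.0109) and Il18, of the interleukin 1 family (-0.88 ± 0.16, adjusted p 0.00234). Neutrophil markers were higher ipsilaterally in 6 of 6 mice (summed level 13.7 to 59.1 against 21.5 to 128 CPM, 3 of 4 tested markers rose). Monocyte and macrophage markers were higher in 6 of 6 (3 of 9 rose). Microglia markers were higher in 5 of 6, with 5 of 11 called higher but 0 of 11 higher in all 6 mice. With the mean of the microglia markers as a covariate, a fit added after seeing the data, Il1rn changed by 7.34 and the list's median was 2.10. The part of neutrophils and monocytes in these rises was not tested.

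The NF-kB list holds inhibitors that the factor induces against itself and adhesion genes. Of 22 tested, 20 rose and 0 fell, at a median of 1.05. Besides the selectins, Icam1, an adhesion ligand for leukocyte integrins, rose from 22.2, 32.3 and 34.5 CPM to 62.5, 94.1 and 136 CPM at 1.57 ± 0.11 (adjusted p 6.7e-05). Tnfaip2, a gene induced by tumour necrosis factor, rose from 4.04, 5.05 and 7.53 CPM to 13.8, 19.1 and 40.2 CPM at 1.90 ± 0.15 (adjusted p 9.12e-05). The sides of neither gene overlapped.

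Promoter sequences were read because AP-1, a dimer of Fos and Jun family proteins, binds TGANTCA and its subunit Fosl1 was among the strongest inductions. RefSeq promoters (GRCm38.p6, 250 bases before to 50 after a start) were matched by symbol for 11276 of the 14926 genes tested. Each motif was searched on both strands. TGANTCA stood in 5.33% of 14473 promoters of genes tested, in 36 of 185 promoters (19.5%) of genes that rose at least 4-fold and in 6.19% of those of genes that fell at least 2-fold. Over all 32851 promoters of the table the share was 7.81%. Stretches around the match are shown for 7 genes, 5′ to 3′ on the gene's strand, with the match in capitals.
Selp, chr1:164115100-164115156 (plus strand): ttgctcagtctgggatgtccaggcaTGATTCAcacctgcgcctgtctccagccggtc
Il1rn, chr2:24336694-24336750 (plus strand): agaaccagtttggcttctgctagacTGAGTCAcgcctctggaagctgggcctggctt
Il11, chr7:4778208-4778264 (minus strand): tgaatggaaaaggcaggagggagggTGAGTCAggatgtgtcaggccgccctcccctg
Sele, chr1:164048136-164048192 (plus strand): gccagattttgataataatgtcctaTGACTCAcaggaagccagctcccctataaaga
Mmp3, chr9:7445751-7445807 (plus strand): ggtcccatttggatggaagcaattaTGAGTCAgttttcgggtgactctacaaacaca
Srxn1, chr2:152105397-152105510 (plus strand): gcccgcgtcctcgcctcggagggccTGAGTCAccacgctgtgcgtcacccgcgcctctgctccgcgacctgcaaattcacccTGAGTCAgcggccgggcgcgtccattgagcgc
Rcan1, chr16:92400157-92400213 (minus strand): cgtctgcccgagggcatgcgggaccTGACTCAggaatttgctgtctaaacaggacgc
A match is a run of letters and shows no binding. AP-1 was not the only motif more frequent in the large rises than in all genes tested. The interferon element, described below, stood in 8.65% of promoters of the large rises against 2.97% of promoters of genes tested. For the composite element of CCAAT-binding and ATF factors, also described below, the shares were 5.95% and 2.25%. For the heat shock element they were 7.57% and 5.64%. Shares for TTCNNNGAA (STAT), TGACGTNN (CRE) and GGG, any 5 bases and CC (NF-kB) in the large rises were 10.8%, 5.95% and 60.5%, against 6.81%, 10.7% and 66.0% of promoters of genes tested, and for the last the share was 90.5% of the 21 promoters of the NF-kB list. The search for TGACNNNGC, the antioxidant response element, can share bases with TGANTCA, as at the matches of Met and Mt2.

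**Figure D4:**
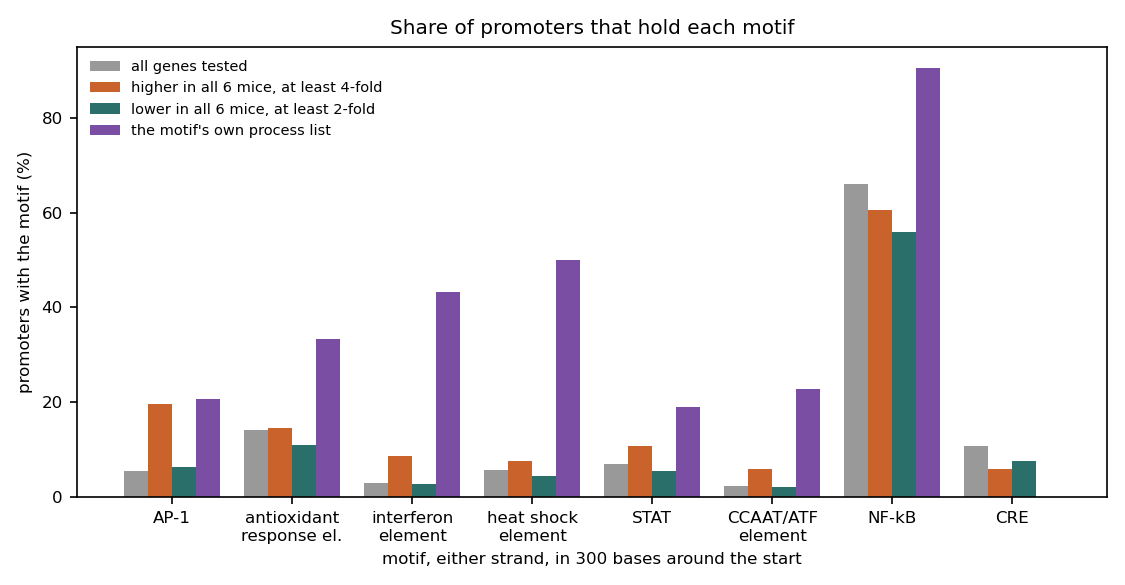
Share of RefSeq promoters that hold each motif on either strand, for all genes tested, rises of at least 4-fold, falls of at least 2-fold and the process list named for the motif (none for CRE). AP-1 stands at 19.5% in the large rises against 5.33% of all, and interferon and heat shock elements are most frequent in their own lists, at 43.3% and 50%.

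The AP-1 subunits themselves split. Of 22 immediate early and AP-1 genes tested, 8 rose and 0 fell in all mice, at a median of 0.26. Fosl1, a Fos family subunit (chromosome 19, 5447547 to 5455946, plus strand), went from 0, 0.166 and 2.96 CPM to 17.1, 38.2 and 66.8 CPM, with 2871 counts ipsilaterally against 46 contralaterally over 6 libraries each, a ratio of 63.9 (95% counting interval 47.7 to 87.4). Fosl2 rose from 22.1, 34.1 and 67.8 CPM to 52.1, 87.4 and 126 CPM at 1.29 ± 0.13 (adjusted p 0.000251), and the growth regulator Myc from 11.3, 12.3 and 31 CPM to 26.5, 43.6 and 63.8 CPM at 1.58 ± 0.15 (adjusted p 0.000193). Ier3, a stress-induced survival gene, changed by 1.15 ± 0.14 (adjusted p 0.000564). The sides were apart for Fosl1 and overlapped for the other 3. The classical members, named after their values were seen, were not called. Fos had 691, 861 and 1444 CPM contralaterally and 540.5, 971 and 1352 CPM ipsilaterally, a change of -0.08 ± 0.14 (adjusted p 0.688), and Jun and Egr1 changed by -0.07 ± 0.11 and -0.01 ± 0.15 (adjusted p 0.631 and 0.967). Fosl1 overlaps Ccdc85b on the opposite strand.

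Rcan1, Camkk2 and Map3k8 were among the rises of at least 2-fold with the smallest SD between mice. Rcan1, an inhibitor of calcineurin (chromosome 16, 92391953 to 92470867, minus strand), went from 37.2, 45.6 and 51.3 CPM to 96.9, 125 and 146 CPM. The sides were far apart, and the 6 mice changed by 1.33 to 1.62 on the log2 scale, an SD of 0.117, at 1.45 ± 0.07 (adjusted p 1.85e-05). Camkk2, a calcium-dependent kinase that activates AMPK, rose from 20.1, 25 and 29.9 CPM to 49.3, 52.6 and 57.7 CPM, with changes of 0.94 to 1.28. Map3k8, a kinase of inflammatory signalling, changed by 0.85 to 1.32. Among the rises with the smallest p, Itga5, the integrin alpha 5 subunit that binds fibronectin, went from 14.4, 19.3 and 37.1 CPM to 64.1, 101 and 126 CPM at 2.21 ± 0.11 (adjusted p 1.85e-05), with changes of 1.76 to 2.65. Neto2, an auxiliary subunit of kainate receptors, went from 2.22, 3.56 and 4.44 CPM to 13.8, 15.5 and 21.9 CPM at 2.28 ± 0.14 (adjusted p 4.25e-05), with changes of 1.98 to 2.56. For all 5 genes the 6 ipsilateral libraries lay above the 6 contralateral ones.

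The list of reactive filaments and surface proteins had 24 genes tested, of which 21 rose and 0 fell, at a median of 1.96. Cd44, the hyaluronan receptor (chromosome 2, 102811141 to 102901665, minus strand), went from 14.8, 23.6 and 61.3 CPM to 78.2, 176 and 256 CPM, with no overlap, at 2.73 ± 0.19 (adjusted p 6.7e-05). Ptx3, a secreted pentraxin of innate immunity, had 3484 counts ipsilaterally against 87 contralaterally over 6 libraries each, a ratio of 41 (95% counting interval 33.1 to 51.3). Clcf1, a cytokine of the interleukin 6 family, rose from 5.78, 7.16 and 28.2 CPM to 48.8, 87 and 131 CPM at 3.25 ± 0.34 (adjusted p 0.000317), and Emp1, epithelial membrane protein 1, from 24.3, 28.3 and 147 CPM to 67.8, 173 and 450.1 CPM at 2.14 ± 0.19 (adjusted p 0.000186).

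Gfap, the filament protein by which reactive astrocytes are usually recognised, had 467, 1081 and 1394 CPM contralaterally and 1627, 2284 and 4282 CPM ipsilaterally. The sides did not overlap, but the change ranged over 0.33 to 2.21 between mice, at 1.29 ± 0.25 (adjusted p 0.00356). Vim, vimentin, rose less, from 708, 939.8 and 1201 CPM to 913, 1517 and 1931 CPM at 0.63 ± 0.15 (adjusted p 0.00968). Lcn2, an iron-trapping lipocalin of inflammation, rose from 4.67, 13.9 and 304 CPM to 92.7, 204 and 574 CPM at 3.39 ± 0.44 (adjusted p 0.000663), with changes of 0.92 to 4.80. The contralateral maximum of Lcn2 was in mouse 296, whose change was the smallest, and the sides overlapped. Mouse 298, the weakest responder over all called genes, had the largest change of both Gfap (2.21) and Lcn2 (4.80). Aqp4, the water channel of astrocyte endfeet, was not called, at -0.25 ± 0.12 (adjusted p 0.122), with 238, 552 and 667 CPM and 189, 471 and 772 CPM. Without mouse 298 Aqp4 passed at -0.34.

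**Figure D5:**
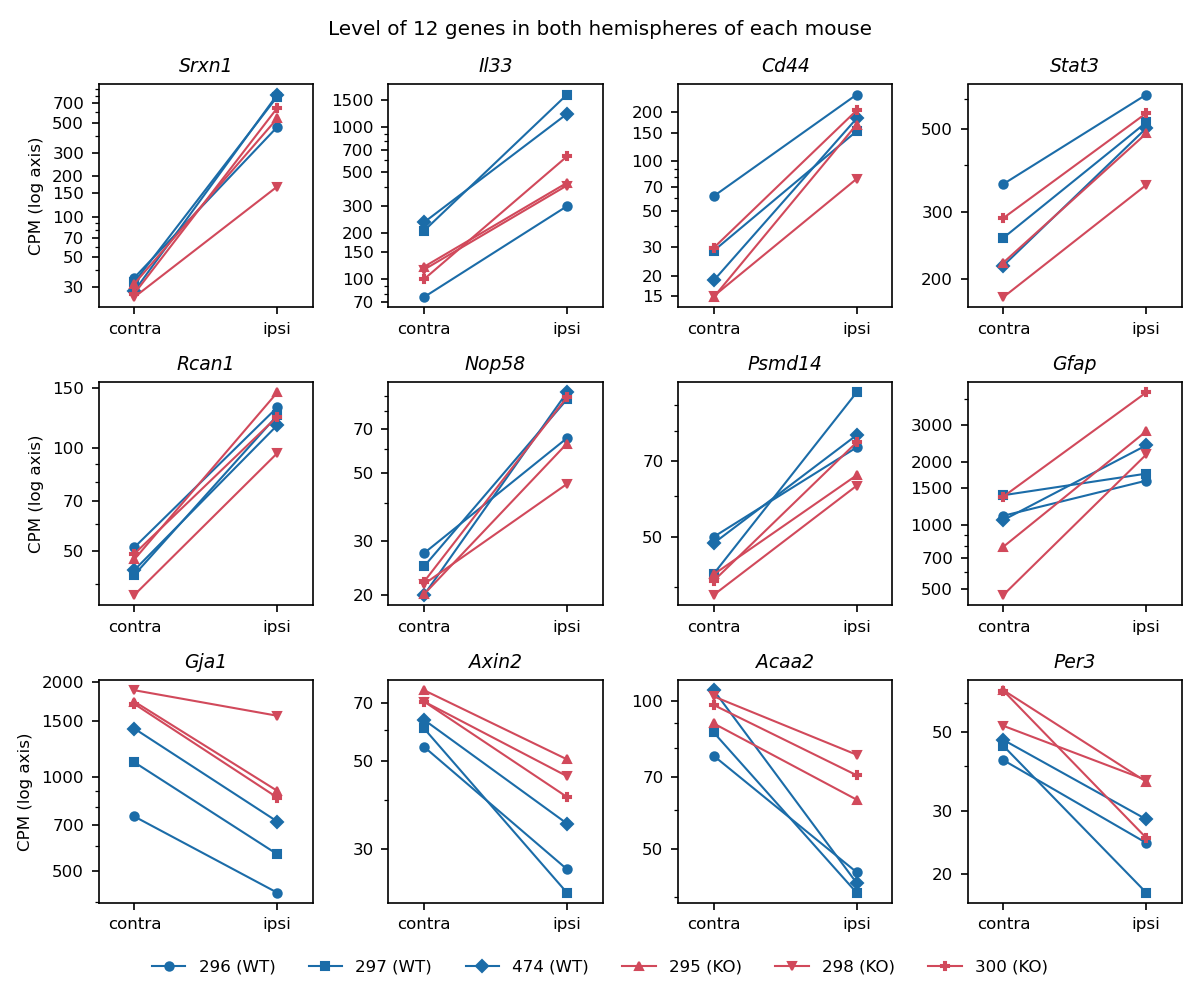
CPM on a log axis in the contralateral and ipsilateral library of each mouse for 12 genes, with 1 line per animal. All 6 lines rise in the first 8 panels and fall in the last 4, and the line of mouse 298 is the flattest for Srxn1, Nop58 and Gja1.

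The STAT3 list comprises the factor activated by interleukin 6 cytokines, its receptors and its targets. Of 19 tested, 15 rose and 0 fell in all mice, at a median of 0.83. Stat3 itself (chromosome 11, 100885098 to 100939540, minus strand) went from 179, 239 and 357 CPM to 355, 511 and 616 CPM, at 1.01 ± 0.09 (adjusted p 0.000165), and was among the steadiest genes, with changes of 0.78 to 1.21. The highest contralateral library just exceeded the lowest ipsilateral one. Il4ra and Il13ra1, receptor chains for interleukins 4 and 13, rose from 15.9, 24.3 and 64.9 CPM to 75.6, 126 and 146 CPM and from 8.59, 11.7 and 13.9 CPM to 27.7, 29.7 and 37.5 CPM, neither with overlap. Their changes were 2.07 ± 0.20 and 1.46 ± 0.11 (adjusted p 0.000224 and 8.08e-05). Cebpd, a transcription factor of the acute phase, changed by 1.50 ± 0.15 (adjusted p 0.000266). Stat3 overlaps Stat5a on the opposite strand.

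Of 31 interferon response genes tested, 30 were called higher, 26 of them in all 6 mice, and 0 were lower, at a median of 1.04. Its per-mouse medians were 0.74 to 1.42, the highest in mouse 296, which had one of the weaker responses over all called genes. Bst2, tetherin, which holds back budding viruses (chromosome 8, 71534255 to 71537456, minus strand), went from 10.2, 13 and 18.3 CPM to 21.1, 31.7 and 49 CPM, with no overlap and changes of 1.03 to 1.42. Isg15, a ubiquitin-like modifier, rose from 3.72, 4.55 and 6.58 CPM to 12.1, 19 and 25.8 CPM at 1.88 ± 0.19 (adjusted p 0.00027). Rsad2, viperin, rose from 5.28, 7.43 and 18.4 CPM to 14.5, 27.1 and 96.1 CPM at 1.86 ± 0.17 (adjusted p 0.000186), with sides that overlapped. Psmb8, a subunit of the immunoproteasome, changed by 1.13 ± 0.10 (adjusted p 0.000171).

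The interferon element, searched as GAAA, any 2 bases and GAAA on both strands like all motifs here, stood in 13 of 30 promoters (43.3%) of this list's genes, against 2.97% of promoters of genes tested. The list was assembled from genes known to respond to interferon, which bears on that share. The stretches of 3 members are shown with the matches in capitals, adjoining matches merged.
Isg15, chr4:156200850-156200921 (minus strand): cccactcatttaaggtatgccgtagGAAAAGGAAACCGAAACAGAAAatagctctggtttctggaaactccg
Bst2, chr8:71537562-71537627 (minus strand): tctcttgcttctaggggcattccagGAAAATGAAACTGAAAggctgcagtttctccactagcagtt
Rsad2, chr12:26456538-26456597 (minus strand): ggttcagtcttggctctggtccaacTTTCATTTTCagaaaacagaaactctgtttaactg

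Nrf2 is a factor that controls antioxidant genes. Of 19 such genes tested, 12 rose and 1 fell, at a median of 0.59. Srxn1, sulfiredoxin, which repairs oxidised peroxiredoxins (chromosome 2, 152105516 to 152111376, plus strand), went from 25.2, 29.8 and 35.2 CPM to 168, 594 and 813 CPM, at 4.11 ± 0.28 (adjusted p 6.7e-05). Hmox1, heme oxygenase 1, went from 13.3, 17 and 46.9 CPM to 85.5, 494 and 661 CPM at 4.18 ± 0.44 (adjusted p 0.000326). Txnrd1, thioredoxin reductase 1, went from 48.9, 57.3 and 83.6 CPM to 203, 426 and 472 CPM at 2.60 ± 0.19 (adjusted p 8.08e-05), and its substrate Txn1 changed by 0.74 ± 0.10 (adjusted p 0.000724). None of the 4 overlapped between sides, and for Srxn1 the lowest ipsilateral value, that of mouse 298, was still several times the highest contralateral one. Nqo1, a quinone reductase and a usual mark of Nrf2 named after its value was seen, fell instead, at -0.30 ± 0.11 (adjusted p 0.0449). It missed the call or a common direction without mouse 474, 295, 298 or 300. The antioxidant element stood in 7 of 21 promoters of the list (33.3%) against 14.1% of all, and in 14.6% of the large rises. The list was assembled from genes known to be controlled by Nrf2, which bears on the share within it. The stretch of Txnrd1 has the match in capitals.
Txnrd1, chr10:82859089-82859147 (plus strand): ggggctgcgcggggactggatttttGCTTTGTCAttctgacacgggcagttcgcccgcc

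Of 18 genes of metal and iron handling, 9 rose and 4 fell, at a median of 0.46. The shares were 50% and 22.2%, against 18.7% and 15.7% of all genes tested. Slc39a14, a zinc and iron importer, rose from 87.3, 113 and 218 CPM to 238, 290.0 and 591 CPM at 1.45 ± 0.11 (adjusted p 8.08e-05), without overlap. Slc39a1, of the same family, changed by 0.68 ± 0.09 (adjusted p 0.000807). Slc39a12, a zinc importer of resting astrocytes, fell from 296, 483 and 616 CPM to 135, 187 and 451 CPM at -1.09 ± 0.14 (adjusted p 0.000589), with overlap. Members of 1 transporter family thus moved in opposite directions in every mouse.

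Of 20 heat shock chaperones, 15 were called higher, 12 in all mice, and 0 lower, at a median of 0.53. Hspd1, the mitochondrial chaperonin (chromosome 1, 55077835 to 55088243, minus strand), went from 91, 121 and 145 CPM to 164, 269.8 and 409.9 CPM without overlap, at 1.11 ± 0.12 (adjusted p 0.000326), and its partner Hspe1 changed by 0.97 ± 0.14 (adjusted p 0.000927). Hspa8, the constitutive cytosolic chaperone, changed by 0.87 ± 0.12 (adjusted p 0.000707), and Dnaja1, a co-chaperone, by 0.67 ± 0.10 (adjusted p 0.000983). Hspd1 and Hspe1 lie head to head with overlapping exons, so reads of the overlap could count for either. The heat shock element GAANNTTC stood in 11 of 22 promoters of the list (50%) against 5.64% of all. The list was assembled from known heat shock genes, which bears on that share, and the site between Hspd1 and Hspe1 counts for both. The shared start region of Hspd1 and Hspe1 and the promoter of Dnaja1 are shown with the match in capitals.
Hspd1, chr1:55088039-55088096 (minus strand): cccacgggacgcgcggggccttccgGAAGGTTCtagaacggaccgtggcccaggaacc
Hspe1, chr1:55088039-55088096 (plus strand): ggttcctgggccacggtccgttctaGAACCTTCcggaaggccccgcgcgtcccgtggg
Dnaja1, chr4:40722319-40722376 (plus strand): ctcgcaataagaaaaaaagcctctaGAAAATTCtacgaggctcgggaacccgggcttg

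Of 18 chaperones and sensors of the endoplasmic reticulum, 14 rose and 1 fell, at a median of 0.51. Hspa5, the main chaperone of that compartment, went from 373, 477 and 614 CPM to 604, 914 and 1226 CPM at 0.85 ± 0.11 (adjusted p 0.000593). Its highest contralateral library just exceeded its lowest ipsilateral one. Edem1, which directs misfolded glycoproteins to degradation, changed by 0.72 ± 0.11 (adjusted p 0.00128), Manf, a secreted stress protein, by 0.63 ± 0.09 (adjusted p 0.00117), and Xbp1, a factor of the unfolded protein response, by 0.62 ± 0.09 (adjusted p 0.00124). Herpud1, a component of the degradation machinery named after its value was seen, fell by 0.25 (adjusted p 0.0142).

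The proteasome, the protease complex that degrades ubiquitin-tagged proteins, rose in nearly all its subunits. All 31 subunits tested were called higher, 28 in all 6 mice, at a median of 0.48 and per-mouse medians of 0.21 to 0.86. Psmd14, the deubiquitinase of the lid (chromosome 2, 61711694 to 61800376, plus strand), went from 38.6, 42.3 and 50 CPM to 62.8, 75.4 and 95.2 CPM at 0.78 ± 0.09 (adjusted p 0.000477). Psmd12 changed by 0.81 ± 0.10, Psmd1 by 0.76 ± 0.09 and Psmd2 by 0.67 ± 0.10 (adjusted p 0.000589, 0.000401 and 0.000907). The sides were apart for all 4. The changes were small, under 2-fold for each subunit, and their size differed between mice. With the oligodendrocyte marker mean as a covariate, a fit added after seeing the data, 14 subunits met both criteria.

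The ATF4 list holds the stress factor, its targets and genes of amino acid supply. Of 20 tested, 11 rose and 1 fell in all mice, at a median of 0.79. Asns, asparagine synthetase (chromosome 6, 7675169 to 7693254, minus strand), went from 4.87, 5.13 and 8 CPM to 13.3, 41.9 and 56.3 CPM at 2.58 ± 0.24 (adjusted p 0.000212). Slc7a1, an importer of cationic amino acids, went from 40.1, 61 and 77 CPM to 93.9, 142 and 206 CPM at 1.31 ± 0.19 (adjusted p 0.000992). Neither overlapped between sides. Slc3a2, the heavy chain of several amino acid exchangers, changed by 0.73 ± 0.11 (adjusted p 0.00136), and Cebpb, an ATF4 partner, by 0.94 ± 0.14 (adjusted p 0.00114). Ddit4, an inhibitor of mTOR named after its value was seen, fell by 0.48 (adjusted p 0.0136), and 3 members of the list fell without mouse 300.

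Of 20 cytosolic tRNA synthetases, the enzymes that load tRNAs with amino acids, 19 rose and 0 fell, at a median of 0.72. Iars, for isoleucine, went from 68.6, 76.3 and 82.1 CPM to 125, 142 and 282 CPM at 1.13 ± 0.14 (adjusted p 0.000593) and Gars, for glycine, from 42.3, 51 and 66.7 CPM to 65.7, 114 and 144 CPM at 1.03 ± 0.11 (adjusted p 0.000358). Tars, for threonine, and Hars, for histidine, changed by 0.81 ± 0.10 and 0.80 ± 0.10 (adjusted p 0.000535 and 0.000577). The sides overlapped for Gars only. The 1 enzyme that was not called was Qars, for glutamine, at 0.16 ± 0.08 (adjusted p 0.112). Hars shares exon bases with Hars2 on the opposite strand.

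The composite element of CCAAT-binding and ATF factors, TGATGNAA, stood in 22.7% of the 22 promoters of the ATF4 list against 2.25% of promoters of genes tested. The list includes known targets of ATF4, which bears on that share. The element was found in Asns and in 2 synthetase genes, which are shown with the match in capitals.
Asns, chr6:7693210-7693257 (minus strand): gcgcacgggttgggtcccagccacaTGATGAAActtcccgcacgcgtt
Gars, chr6:55037946-55038000 (plus strand): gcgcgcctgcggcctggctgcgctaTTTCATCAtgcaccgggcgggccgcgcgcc
Tars, chr15:11399659-11399698 (minus strand): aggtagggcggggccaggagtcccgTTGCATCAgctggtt

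Ribosome biogenesis genes, which make and process ribosomal RNA in the nucleolus, all moved one way: 24 of 24 tested rose, at a median of 0.97 and per-mouse medians of 0.60 to 1.23. Nop58, a core protein of small nucleolar particles (chromosome 1, 59684971 to 59719044, plus strand), went from 20.0, 21.9 and 27.4 CPM to 46.2, 76.4 and 92.2 CPM at 1.67 ± 0.15 (adjusted p 0.000178). Rrp12, an export factor of ribosomal subunits, went from 16.6, 19.5 and 26 CPM to 30.4, 59.8 and 74.8 CPM, and Ddx21, an RNA helicase, from 47.6, 51.2 and 68.1 CPM to 96.7, 146 and 180.2 CPM, at 1.50 ± 0.14 and 1.43 ± 0.13 (adjusted p 0.000224 and 0.000195). Npm1, nucleophosmin, changed by 0.76 to 1.24 between mice, at 0.97 ± 0.09 (adjusted p 0.000203). In all 4 genes each ipsilateral library exceeded each contralateral one. Nop58 overlaps an unnamed gene on the same strand.

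Growth arrest genes and cell cycle genes both contained rises. Of 18 growth arrest and p53 targets, 11 rose and 2 fell, at a median of 0.73. Gdf15, a secreted stress signal, went from 0.438, 0.89 and 1.4 CPM to 3.15, 67.7 and 91.3 CPM, with 3907 counts ipsilaterally against 69 contralaterally over 6 libraries each, a ratio of 57.9 (95% counting interval 45.7 to 74.6). Gadd45b, a stress-induced growth arrest gene, went from 16.3, 20.8 and 54 CPM to 59.2, 176 and 210.2 CPM at 2.60 ± 0.24 (adjusted p 0.000202). The sides were apart for both. Phlda3, an inhibitor of Akt, and Plk3, a stress kinase, changed by 1.16 ± 0.14 and 0.93 ± 0.12 (adjusted p 0.000515 and 0.000572). The members that fell, named after their values were seen, were Sesn1 at -0.77 and Btg2 at -0.41 (adjusted p 0.000676 and 0.01).

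Of 29 cell cycle genes, 9 rose and 2 fell (31% and 6.9%, against 18.7% and 15.7% of all genes tested), at a median of 0.14. Ccnd1, cyclin D1, went from 28.7, 36 and 54.5 CPM to 76.2, 112 and 178 CPM without overlap, at 1.60 ± 0.17 (adjusted p 0.00032). Pcna, the DNA polymerase clamp, went from 42.2, 48.1 and 60.8 CPM to 68.7, 93.3 and 114 CPM at 0.85 ± 0.09 (adjusted p 0.000385), and the helicase subunits Mcm5 and Mcm2 changed by 1.23 ± 0.14 and 0.95 ± 0.12 (adjusted p 0.000451 and 0.000577). Mki67, Top2a and Cdk1, named after their values were seen, changed by -0.42 ± 0.20, -0.15 ± 0.17 and -0.04 ± 0.24 (adjusted p 0.12, 0.501 and 0.916), and Plk1 and Rrm2 fell by 0.61 and 0.58 (adjusted p 0.0174 and 0.0168). Without mouse 298 the list had 1 fall.

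Of 33 actin and focal adhesion genes, 25 rose and 2 fell, at a median of 0.61. Msn, moesin, which ties actin to the membrane (chromosome X, 96096042 to 96168552, plus strand), went from 131, 187 and 269.9 CPM to 337, 525 and 646 CPM at 1.46 ± 0.15 (adjusted p 0.000272). Arpc1b, of the complex that branches actin, went from 43.7, 70.1 and 100.3 CPM to 111, 206 and 249 CPM at 1.48 ± 0.12 (adjusted p 0.000141). Both were apart between sides. S100a10, an annexin partner, changed by 1.67 ± 0.14 and Tpm4, a tropomyosin, by 0.90 ± 0.09 (adjusted p 0.000151 and 0.000292). The members that fell, named after their values were seen, were Myl9, a smooth muscle light chain, at -0.92 ± 0.16 (adjusted p 0.00222) and Tpm1 at -0.25 ± 0.09 (adjusted p 0.0467). Without mouse 297, 474 or 298 the list had 1 fall. The 10 markers of pericytes and smooth muscle summed to 1200 to 1530 CPM contralaterally and 712 to 1530 CPM ipsilaterally, lower in 6 of 6 mice, with 4 of 10 falling and 1 rising. In mouse 295 the log2 ratio of the sums was only -0.0014. The part of these cells in the fall of Myl9 was not tested.

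Of 14 microtubule genes, 6 rose and 0 fell, at a median of 0.27. Tubb6, a beta tubulin, went from 3.73, 5.47 and 25.8 CPM to 47.3, 78.5 and 132 CPM without overlap, at 3.47 ± 0.36 (adjusted p 0.000308), and Tuba1c, an alpha tubulin, from 3.43, 8.4 and 21.3 CPM to 12.8, 29.4 and 60.1 CPM at 1.81 ± 0.19 (adjusted p 0.000326). Tubb5 changed by 0.83 ± 0.14 and Mapre1, which binds growing microtubule ends, by 0.52 ± 0.07 (adjusted p 0.0017 and 0.000958). Tubulin copies are alike in sequence, and how the authors counted reads that fit several genes is not known.

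Of 31 genes of the extracellular matrix, its proteases and their inhibitors, 17 rose and 5 fell, at a median of 1.23. The shares were 54.8% and 16.1%, against 18.7% and 15.7% of all genes tested, so the share of falls was near that of all genes. Mmp3, stromelysin 1, a matrix protease, had 1265 counts ipsilaterally against 25 contralaterally over 6 libraries each, a ratio of 51.8 (95% counting interval 34.9 to 80.3). Adamts1, a protease of proteoglycans, went from 166, 198 and 448 CPM to 431, 679 and 1020.5 CPM at 1.55 ± 0.11 (adjusted p 6.7e-05), and Tgm2, which cross-links matrix proteins, from 108, 144 and 183 CPM to 226, 306 and 376 CPM at 1.07 ± 0.09 (adjusted p 0.000147). Of these 3 genes the sides overlapped for Adamts1 only. The members that fell, named after their values were seen, included Bcan, brevican, a proteoglycan of the brain matrix, at -1.22 ± 0.21 (adjusted p 0.00212), and the protease inhibitors Timp3 and Timp4 at -0.61 and -0.67 (adjusted p 0.00292 and 0.0108). The other two were Mmp15 and Serpine2, at -0.67 and -0.35 (adjusted p 0.000648 and 0.0308).

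Of 30 growth factors and receptors, 10 rose and 5 fell, at a median of 0.37. The shares were 33.3% and 16.7%, against 18.7% and 15.7% of all genes tested, so the share of falls was near that of all genes. Hbegf, a ligand of the EGF receptor (chromosome 18, 36504927 to 36515805, minus strand), went from 36.7, 53.7 and 64.6 CPM to 109, 139 and 209 CPM at 1.50 ± 0.11 (adjusted p 6.7e-05), and Tgfa, a further ligand, from 76.7, 102 and 117 CPM to 127, 226 and 337 CPM at 1.11 ± 0.14 (adjusted p 0.00058). Met, the receptor of hepatocyte growth factor, rose from 1.24, 1.74 and 6.43 CPM to 8.26, 18.1 and 24.5 CPM at 2.83 ± 0.35 (adjusted p 0.000555), and Vgf, a secreted neuropeptide precursor, had 1561 counts ipsilaterally against 56 contralaterally over 6 libraries each, a ratio of 28.5 (95% counting interval 21.8 to 37.9). None of the 4 overlapped between sides. The falls, named after their values were seen, were the angiogenic factor Vegfa at -0.83 ± 0.16 (adjusted p 0.0034), pleiotrophin Ptn at -0.80, the neurotrophin receptor Ntrk2 at -0.66, and the fibroblast growth factor receptors Fgfr3 and Fgfr1 at -1.02 and -0.29 (adjusted p 0.0112, 0.00417, 0.00206 and 0.0383). Without mouse 300 the falls numbered 8. In the neuron list 1 of 10 markers rose (10%, against 18.7% of all genes tested). The neuron markers summed to 34.9 to 109 CPM contralaterally and 36.4 to 120 CPM ipsilaterally.

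By the same rule, the 12 largest falls were those of Gdf10, Hes5, Ces1d, Kirrel2, Nphs1, Cpne6, Cyp4f15, Fam184b, Fzd2, Fzd10, Kcnip2 and Kcnt1. Gdf10, a ligand of the TGF-beta family (chromosome 14, 33923587 to 33937983, plus strand), went from 33.7, 36.7 and 45.9 CPM to 4.96, 11.6 and 15 CPM. The sides were well apart, at -1.88 ± 0.20 (adjusted p 0.000326), with changes of -2.72 to -1.29. Hes5, the Notch effector (chromosome 4, 154960923 to 154962371, plus strand), went from 26.5, 90.4 and 135 CPM to 4.09, 28.5 and 62.6 CPM at -1.69 ± 0.29 (adjusted p 0.00197), with overlap. Ces1d, a carboxylesterase, went from 9.64, 14.2 and 21.1 CPM to 1.55, 5.21 and 7.38 CPM at -1.64 ± 0.30 (adjusted p 0.00276). Kirrel2 and Nphs1, both adhesion proteins of the nephrin family, fell from 75.6, 94.8 and 114 CPM to 17.8, 31.6 and 56.8 CPM and from 17, 23.1 and 31.2 CPM to 5.49, 7.61 and 14.8 CPM, with no overlap in either, at -1.55 ± 0.20 and -1.51 ± 0.16 (adjusted p 0.000636 and 0.000339). Cpne6, a copine that binds membranes with calcium, fell from 15.4, 20.7 and 21.6 CPM to 1.71, 7.56 and 11.5 CPM at -1.52 ± 0.25 (adjusted p 0.00183). Cyp4f15, a cytochrome P450 of lipid metabolism, fell from 149.7, 304 and 349 CPM to 57.9, 89 and 221 CPM at -1.44 ± 0.18 (adjusted p 0.000636).

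The falls with the smallest p or the smallest spread between animals were smaller in size. Mroh7 went from 38.7, 45.9 and 53.9 CPM to 15.6, 16.9 and 29.4 CPM at -1.29 ± 0.12 (adjusted p 0.000206). Eno3, the muscle-type enolase of glycolysis, went from 20.6, 23.2 and 28.7 CPM to 8.05, 10.6 and 15.1 CPM at -1.10 ± 0.11 (adjusted p 0.000292), and Pnpla7, a lysophospholipase, from 137, 148 and 175 CPM to 62, 86.7 and 103 CPM at -0.84 ± 0.09 (adjusted p 0.000317). In these 3 genes every ipsilateral library lay below every contralateral one. Nat8f4, of a family of acetyltransferases with near copies, changed by -1.18 ± 0.12, Nsg2 by -1.19 ± 0.13 and Tprkb by -0.99 ± 0.10 (adjusted p 0.000275, 0.00035 and 0.000242). Mpp3, Adrbk2, a kinase of G protein-coupled receptors, Exd1 and Kctd14 changed by -1.09, -1.02, -1.04 and -1.01 (adjusted p 0.000666, 0.000494, 0.00106 and 0.00069). Fam184b changed by -1.50 (adjusted p 0.000779). Tprkb shares exon bases with Nat8f1 on the opposite strand.

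Of 36 homeostatic astrocyte genes, 26 fell and 1 rose, at a median of -0.73 and per-mouse medians of -1.17 to -0.18. Gja1, connexin 43, the main gap junction protein of astrocytes (chromosome 10, 56377330 to 56402513, plus strand), went from 747, 1562 and 1876 CPM to 428, 789 and 1557 CPM at -0.83 ± 0.12 (adjusted p 0.00121). Each animal's ipsilateral value was below its own contralateral one, though the sides overlapped because the levels of the mice differed. Acsl6, an acyl-CoA synthetase, went from 584, 857 and 1065 CPM to 219, 392 and 855 CPM at -1.02 ± 0.16 (adjusted p 0.00131). Gabrg1, a GABA-A receptor subunit, changed by -0.87 ± 0.14 (adjusted p 0.00139) and by as little as 0.10 downward in mouse 298. The 1 member that rose, named after its value was seen, was Grm5, a glutamate receptor, at 1.64 ± 0.27 (adjusted p 0.00186). Slc1a2 and Slc1a3, the glutamate transporters, also named afterwards, fell at -0.61 and -0.67 (adjusted p 0.0148 and 0.00468). With the oligodendrocyte or microglia marker mean as a covariate 26 and 24 members fell. No fit had astrocyte markers as a covariate. Of the 10 defining astrocyte markers 6 fell and 1 rose, with per-mouse medians of -0.87 to -0.099. The part of a lower astrocyte share in the falls of this list was not tested.

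Of 33 transcription factors of astrocytes and other glia, 24 fell and 0 rose, at a median of -0.58. Id4, an inhibitor of differentiation factors, went from 107, 134 and 145 CPM to 44.3, 71.3 and 117 CPM at -0.86 ± 0.13 (adjusted p 0.00111). The list shares Gli1, Gli2 and Gli3, the effectors of hedgehog signalling, with the Notch and hedgehog list, of which 15 of 22 fell and 0 rose, at a median of -0.43. Gli1 went from 107, 114 and 155 CPM to 33.3, 54.3 and 110.0 CPM at -1.18 ± 0.17 (adjusted p 0.00112). Gli2 and Gli3 changed by -0.84 ± 0.11 and -0.60 ± 0.10 (adjusted p 0.000667 and 0.00158), and Lfng, a sugar transferase that tunes Notch, by -0.94 ± 0.15 (adjusted p 0.00172). The sides overlapped in all 5 genes, while each mouse moved downward. Gli1 overlaps Arhgap9 on the opposite strand.

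Of 34 genes of the Wnt pathway, which acts through beta-catenin or without it, 16 fell and 0 rose, at a median of -0.40. Among receptors, Fzd10 went from 5.25, 16.6 and 27.1 CPM to 2.2, 3.72 and 12.2 CPM at -1.65 ± 0.19 (adjusted p 0.000395), and Fzd2 (chromosome 11, 102604396 to 102608058, plus strand) from 131, 183 and 196 CPM to 40.2, 64.8 and 122 CPM at -1.44 ± 0.20 (adjusted p 0.000935), the latter without overlap. Axin2, both a target of the pathway and its inhibitor (chromosome 11, 108920349 to 108950783, plus strand), went from 54.3, 67 and 75.4 CPM to 23.3, 37.7 and 50.5 CPM. All its ipsilateral libraries lay below all contralateral ones, at -0.87 ± 0.11 (adjusted p 0.000589). Wls, which carries Wnt proteins to the cell surface, changed by -0.67 to -0.37 between mice, at -0.53 ± 0.08 (adjusted p 0.000935). Axin2 overlaps an unnamed gene on the opposite strand.

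Of 21 potassium and other ion channels, 9 fell and 2 rose, at a median of -0.28. The shares were 42.9% and 9.52%, against 15.7% and 18.7% of all genes tested. Kcnk1, a leak channel, went from 202, 303 and 329 CPM to 93.5, 149 and 255 CPM at -0.95 ± 0.18 (adjusted p 0.00297) and Kcnn2, opened by calcium, from 110.1, 167 and 252 CPM to 46.4, 80.5 and 197 CPM at -1.01 ± 0.14 (adjusted p 0.000806). Kcnk2, a mechanically gated leak channel, and Kcnj16, an inward rectifier, changed by -0.83 ± 0.14 and -0.41 ± 0.08 (adjusted p 0.00202 and 0.00428). Of the largest falls, Kcnt1, opened by sodium, and Kcnip2, a channel partner, also belong to this function. Kcnt1 went from 228, 344 and 1149.9 CPM to 71.7, 111 and 419 CPM at -1.48 ± 0.17 (adjusted p 0.000463), and Kcnip2 from 4.99, 5.88 and 7.51 CPM to 0.814, 1.96 and 4.48 CPM at -1.51 ± 0.34 (adjusted p 0.00665). The sides overlapped in all but Kcnip2. The 2 rises, Kcna1 and Cacnb4, named after their values were seen, changed by 0.30 and 0.59 (adjusted p 0.0386 and 0.00612), and in 13 of 18 alternatives 1 channel of the list rose.

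Of 21 genes of glycolysis and lactate transport, 5 rose and 5 fell (23.8% each, against 18.7% and 15.7% of all genes tested), at a median of 0.10, or -0.10 with the oligodendrocyte marker mean as a covariate. Hk2, an inducible hexokinase, went from 10.3, 16 and 24.5 CPM to 29.5, 34.1 and 50.4 CPM at 1.19 ± 0.14 (adjusted p 0.00042), Ldha, the lactate dehydrogenase subunit that favours lactate, from 135, 167 and 179.7 CPM to 218, 266 and 403 CPM at 0.78 ± 0.11 (adjusted p 0.000901), and Slc16a3, a lactate exporter, from 3.06, 4.37 and 6.35 CPM to 9.73, 11.5 and 15.3 CPM at 1.41 ± 0.14 (adjusted p 0.000266). None of these overlapped. Pfkfb3, which makes an activator of glycolysis, changed by 0.72 ± 0.11 (adjusted p 0.00114). The falls, named after their values were seen, included Ldhb, the other lactate dehydrogenase subunit, at -0.74 ± 0.16 (adjusted p 0.00598), Aldoc, the brain aldolase, at -0.81, Pfkm at -0.75, the glucose transporter Slc2a1 at -0.46 and Pdk1 at -0.48 (adjusted p 0.0163, 0.00913, 0.00815 and 0.0198). The subunits Ldha and Ldhb moved in opposite directions in each animal.

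Of 24 genes that break down fatty acids and form ketone bodies, 13 fell and 0 rose, at a median of -0.32. Acaa2, Acsl3 and Acadm, enzymes of fatty acid activation and oxidation, changed by -0.75 ± 0.13, -0.71 ± 0.11 and -0.42 ± 0.08 (adjusted p 0.00191, 0.00152 and 0.00396). Of 25 genes of amino acid breakdown, 15 fell and 1 rose, at a median of -0.45. Prodh, proline dehydrogenase, went from 254, 319 and 347 CPM to 88, 136 and 213 CPM at -1.21 ± 0.15 (adjusted p 0.00057), and Ivd, of leucine breakdown, from 266, 317 and 394 CPM to 165, 181 and 249.9 CPM at -0.78 ± 0.10 (adjusted p 0.000691), neither with overlap. Aass, of lysine breakdown, and Aldh4a1, of proline breakdown, changed by -1.07 ± 0.13 and -0.55 ± 0.10 (adjusted p 0.00058 and 0.00212). The 1 rise, Dbt, named after its value was seen, was 0.22 ± 0.07 (adjusted p 0.0346), and in 13 of 18 alternatives 0 members rose.

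Of 30 genes of cholesterol and fatty acid synthesis, 5 rose and 4 fell, at a median of -0.01. These shares of 16.7% and 13.3% were near those of all genes tested, 18.7% and 15.7%. Fads2, a fatty acid desaturase, changed by -0.91 ± 0.14, Tm7sf2, a sterol reductase, by -0.87 ± 0.16, and Srebf1, the factor that drives fatty acid synthesis, by -0.72 ± 0.12 (adjusted p 0.00138, 0.00247 and 0.00197), while Hsd17b7, of cholesterol synthesis, changed by 0.71 ± 0.11 (adjusted p 0.00133). The rises were 3 without mouse 297, 474 or 300 and 1 with the oligodendrocyte covariate, and the falls were 9 without mouse 300. The log2 ratio of the oligodendrocyte marker sum was 0.315 in mouse 297, -0.41 in mouse 474 and 2.07 in mouse 300.

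The nuclear genes of the respiratory chain were the list without a call: 0 of 34 passed edgeR's test at the adjusted level in either direction, at a median of 0.04. Ndufa10 had 62, 68.6 and 83.5 CPM contralaterally and 72.5, 77.1 and 95.1 CPM ipsilaterally, at 0.21 ± 0.09 (adjusted p 0.103), and Ndufs7 changed by -0.23 ± 0.13 (adjusted p 0.17). Both are subunits of complex I, and both overlapped between sides. Without mouse 474, 3 members rose.

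Of 18 circadian clock genes, 10 fell and 4 rose, at a median of -0.43. The shares were 55.6% and 22.2%, against 15.7% and 18.7% of all genes tested. Per3, a repressor of the clock (chromosome 4, 151003652 to 151044665, minus strand), went from 41.6, 49.6 and 65.3 CPM to 17.7, 26.8 and 36.6 CPM without overlap, at -0.93 ± 0.13 (adjusted p 0.000793). Dbp and Tef, output factors of one family, changed by -0.95 ± 0.15 and -0.71 ± 0.09 (adjusted p 0.0013 and 0.00059), and Cry2, a further repressor, by -0.62 ± 0.09 (adjusted p 0.00112). The rises, named after their values were seen, were Nfil3, which opposes Dbp and Tef at their sites, at 1.43 ± 0.22 (adjusted p 0.00134), Clock at 0.84, Cry1 at 0.35 and Bhlhe40 at 0.25 (adjusted p 0.00299, 0.0118 and 0.0371). Both hemispheres of a mouse were taken from the same animal at 24 h, so the sides of a pair share the time of collection. Whether the size of these changes varies with the time of day was not tested. Without the mouse block, or from TPM, 2 members rose.

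Of 18 glucocorticoid-responsive genes, 5 rose and 4 fell, at a median of 0.25. The shares were 27.8% and 22.2%, against 18.7% and 15.7% of all genes tested, so both were not far from those of all genes. Mt2, metallothionein 2, went from 368, 547 and 1535 CPM to 697, 1016 and 2397 CPM at 1.01 ± 0.15 (adjusted p 0.00104), and Errfi1, an inhibitor of the EGF receptor, from 39.7, 66.9 and 243 CPM to 68, 109.7 and 348 CPM at 0.72 ± 0.09 (adjusted p 0.000574). Nfkbia, the inhibitor of NF-kB, changed by 0.58 ± 0.10 (adjusted p 0.0018). The sides overlapped in all 3, and Errfi1 and Nfkbia did not pass without the mouse as a block. Tsc22d3, which is induced by the hormone and was named after its value was seen, fell by 0.52 (adjusted p 0.0103). Without the block, 2 genes rose and 1 fell.

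Of 25 genes of lysosome and autophagy, 9 rose and 2 fell, at a median of 0.34. The shares were 36% and 8%, against 18.7% and 15.7% of all genes tested. Ctsb, cathepsin B (chromosome 14, 63122462 to 63145923, plus strand), went from 684, 772 and 839 CPM to 1196, 1666 and 2223 CPM without overlap, at 1.12 ± 0.15 (adjusted p 0.000711). Ctsl and Ctsz, further cathepsins, changed by 0.87 ± 0.15 and 0.79 ± 0.12, and Atp6v1h, of the proton pump, by 0.75 ± 0.10 (adjusted p 0.0019, 0.00135 and 0.000763). Cathepsins are also abundant in microglia, whose markers were higher in 5 of 6 mice. With the microglia covariate 9 members rose. Ctsb overlaps Fdft1 on the opposite strand.

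The side by genotype term asks where the response of the KO mice differed from that of the WT mice. It called 0 of 14926 genes (0%) by edgeR at the adjusted level, 1479 (9.91%) had an unadjusted p under 0.05, and DESeq2 called 93. The 5 smallest p-values belonged to Dbx2, a homeobox factor, Bdkrb2, a bradykinin receptor, Wnt7b, Slc6a13, a GABA transporter, and Hes5, each with an adjusted p of 0.351. Hes5 changed by a mean of -2.51 in the 3 WT mice and -0.99 in the 3 KO mice (difference 1.54 ± 0.25, unadjusted p 0.000204). Dbx2 changed by -1.28 and -0.13 (difference 1.15 ± 0.17), Slc6a13 by -1.79 and -0.27 (difference 1.56 ± 0.25), and Wnt7b by -0.88 and 0.03 (difference 0.91 ± 0.14). Bdkrb2 changed by 0.44 and 2.47 (difference 2.20 ± 0.33). Averaged over both labels, Wnt7b was not called, at -0.42 ± 0.17 (adjusted p 0.0725), and Bdkrb2 was called at 1.42 ± 0.39 (adjusted p 0.0179) but not without mouse 295 or, at 0.65, with the oligodendrocyte covariate. Dbx2 and Slc6a13 were called at -0.69 ± 0.21 and -1.01 ± 0.29 (adjusted p 0.0266 and 0.0198), and neither was called without mouse 296 or 297 or, at -0.51 and -0.81, with the microglia covariate. Dbx2 was also not called without mouse 474, without the mouse block (-0.70) or without the filter on low counts (-0.69). Gfap changed by a mean of 0.69 and 1.89 (difference 1.20 ± 0.27, unadjusted p 0.00213), which did not pass the adjustment either. Failing to pass does not show that the responses were alike.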

How the data were processed

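RNA of ACSA-2-positive astrocytes was sequenced (HiSeq 2500, per the labels' protocols) from both hemispheres of 6 mice. For each of the 12 libraries the authors deposited a table of 48709 genes with whole-number counts of reads per gene, TPM and RPKM. The deposited TPM served 1 alternative, and the deposited RPKM were not used. Per the submitters' processing notes, mm10 was the genome. Aligner, counting tool and strand are not given in the sources used. No batch or date is named in the labels. The results for the targeted gene and for some genes selected by the rule are not reported here.

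Genes were kept by filterByExpr (minimum count 10), leaving 14926, and scaled by TMM. In edgeR 4.0.16 (R 4.3.3) a robust quasi-likelihood model with mouse and side was fitted (5 residual degrees of freedom), with Benjamini-Hochberg adjustment over all genes, called at 0.05. The SE is the log2 fold change over the square root of F and is approximate. Per-mouse changes are differences of log2 CPM with a prior count of 2, which shrinks low genes. The side by genotype term was fitted separately. The mouse number in each title pairs libraries of 1 animal. After removing group means, paired libraries correlated at 0.649, 0.00173, 0.366, 0.311, 0.373 and 0.154 for mice 296, 297, 474, 295, 298 and 300, and that of mouse 297 correlated best with mouse 474. Counts of replicate libraries differed by 11.3 to 70.6 times counting noise, so none was a duplicate. Counting intervals (95%) cover counting error only.

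Genes were named by rule among those with a mean of at least 4 CPM that moved one way in all 6 mice: the 12 largest rises and falls, the 8 of each with the smallest p, the 6 of each of at least 2-fold with the smallest SD between mice, up to 4 members of each list by p, 4 usual marks of reactive astrocytes and the 5 smallest p-values of the genotype term. The libraries, 33 process lists, 12 marker lists and these rules were chosen with earlier results of these data known. Of 162 genes so selected, 51 have exons that overlap another gene (GENCODE M21, GRCm38), which unstranded counting could mix. On simulated data of 14926 genes, 83% of 2-fold and 99% of 4-fold changes were recovered, with 7.14% of calls false. There, 100 genes changed 2-fold and 100 changed 4-fold, by the same amount in every mouse. In the real data 41.8% of genes were called and the size differed between mice, so these rates need not hold for them. Alternatives were DESeq2 1.42.0, limma-voom (limma 3.58.1), other scalings and filters, no robust estimation, no block and each mouse left out. Added after seeing the data were limma-trend on log2(TPM + 1) and the mean of the oligodendrocyte or microglia markers as covariate.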

Additional observations from a re-analysis of the deposited data

Results flagged for a closer look

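Of 195 per-mouse results checked, 6 (3.08%) had 1 mouse whose gap to the nearest other mouse passed Dixon's limit for 6 values, where chance flags about 1 in 20. In mouse 298 the fall of Gja1, connexin 43, was -0.27, with the other mice at -0.99 to -0.80. In the same mouse Gabrg1, a GABA-A receptor subunit, changed by -0.10 (others -1.23 to -0.89) and Aass, an enzyme of lysine breakdown, by -0.46 (others -1.42 to -1.06). In mouse 296 the rise of Lcn2 was 0.92, with 3.47 to 4.80 elsewhere. In mouse 300 the rise of Pfkfb3 was 0.18, with 0.69 to 0.98 elsewhere. In mouse 297 the median of the Notch and hedgehog list was -0.82, with -0.46 to -0.26 elsewhere.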

How the results depend on the processing

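Across 18 alternatives the genes that rose in all mice numbered 2028 to 2851 and those that fell 1606 to 2688. Leaving out each mouse gave 2399 to 3014 genes called higher and 2114 to 2948 called lower, of which 2268 to 2851 and 1937 to 2688 moved one way in all remaining mice. Without the replicate block, which ignores the pairing, 2784 genes were higher and 2272 lower, 2456 and 1899 of them in all mice, and 4327 of the 5138 shared genes were called the same way. Without it Dbx2 (-0.70), Errfi1 (0.73), Kcnj16 (-0.39), Kcnt1 (-1.34) and Nfkbia (0.56) were no longer called. Of 2916 values of 162 single genes examined, 2890 kept direction and call, 15 lost the call, 10 gained it and 1 reversed: Ndufa10, not called, stood at -0.0086 with the oligodendrocyte covariate. With that covariate the median of the glycolysis list reversed to -0.10 and that of growth factors was 0.24, or 0.11 from TPM, the cause of which was not tested. The other 591 of 594 list medians moved by less than the SD between mice. DESeq2 called 93 genes for the genotype term, where edgeR called 0 in each alternative, and the count at an unadjusted p under 0.05 was 732 without the block, 2320 without mouse 297, 898 without mouse 474 and 907 without mouse 300. Depth limits genes with few contralateral counts, whose fitted fold changes depend on the count added before logs.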
